A study of Bos taurus with 16 samples.

Results

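High feed intake was set against low feed intake in the spleen of 16 steers, 8 labelled high intake and 8 labelled low intake, which are all the animals of the series. The label of each steer also gave its gain as high or low. Of the 8 high gain steers 4 had high and 4 had low intake, and the 8 low gain steers were split in the same way. The animals were crossbred castrated males of about 1 year that had free access to one ration for 84 days and were picked as the most divergent for gain and intake, so the intake level was observed and not imposed, and no group received another diet or agent. One spleen sample per steer, from the free end of the organ, was measured on 1 Affymetrix Bovine 1.1 ST array. The breed make-up of the groups was not the same. The breed, slaughter day and array strip of each steer are not in the labels, so none of them entered a model. By the paper's account every slaughter day had 1 steer of each group, so day was balanced over the groups. Breed and array strip cannot be told apart from the groups to the extent that they differ between them. Differences are high minus low intake in log2 signal throughout.

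The spleen filters blood and holds immune cells. Its red pulp contains macrophages that take up old red cells, its white pulp contains B and T lymphocytes, and its capsule and trabeculae carry smooth muscle, which in cattle is abundant and lets the organ contract and release stored blood. After a meal, nutrients, gut hormones and microbial products enter the circulation that the spleen filters. The pathways read here were those of energy use, growth, stress, innate and adaptive immunity and the cell types of the organ. A bulk sample mixes all of these cells, and fewer cells of a type and less RNA per cell cannot be told apart in it.

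The array medians lay between 8.24 and 8.37, and any pair of arrays had a correlation across features between 0.955 and 0.986. The tissue label was checked against marker lists. The mean log2 signal of the red pulp macrophages list lay between 13.66 and 14.34 in the high intake steers and between 13.48 and 14.17 in the low intake steers, while the median level of all features was 8.30. That of the B cells list lay between 10.57 and 11.70 in the high intake steers and between 10.74 and 11.49 in the low intake steers. The adipocytes list, for a tissue that can cling to the organ, stayed between 6.78 and 7.07 in the high intake steers and between 6.83 and 7.10 in the low intake steers. The intake groups overlapped in each of these lists. The log2 values had been stretched by the authors' array software, so a log2 difference here is one of the stretched scale and is not given as a fold.

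In limma, with the means of the 4 groups in the model, 429 of 24997 features were higher with high intake at an unadjusted p under 0.05, or 1.72% of those tested, and 421 were lower, or 1.68%. The sum of 850 features, or 3.4%, is below the share that such a threshold gives when no feature differs. After Benjamini-Hochberg adjustment over all features, 0 features were called, or 0% (lowest adjusted p = 0.548 by limma), and ordinary least squares, with 447 higher and 430 lower at an unadjusted p under 0.05, also called 0. The single genes that follow therefore rest on unadjusted p-values, and since they were picked by p on these 16 steers, their exact permutation p-values are a description and no independent support. The median difference over all features was 0.0035. Features higher with high intake at any p made up 51.1% of those tested, 25.3% were higher in both gain levels and 23.1% lower in both.

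KCNMA1, the pore subunit of the large-conductance calcium-activated potassium channel that relaxes smooth muscle, had the smallest p of the features higher with high intake. Its log2 signal was 7.66, 7.68, 7.86 and 8.02 in the high gain-high intake steers, against 7.03, 7.09, 7.26 and 7.49 in the high gain-low intake steers. In the low gain steers it was 8.16, 8.15, 8.61 and 7.88 with high intake, against 7.35, 7.73, 7.52 and 7.61 with low intake. The high intake steers were the higher ones in either gain level with no overlap, and the groups overlapped only when the gain levels were put together, where 6 of 8 high intake steers lay above all low intake steers. KCNMA1 differed by 0.62 (standard error 0.11; adjusted p = 0.548 in limma; two-sided exact permutation p = 0.000408 with steers shuffled within gain level, the smallest that this design allows). The difference was 0.59 within high gain and 0.65 within low gain.

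SYT11, a synaptotagmin of vesicle traffic that in mice limits cytokine release and phagocytosis by macrophages, was the single feature whose 8 high intake steers all lay above the 8 low intake steers, 0.004% of the features tested. Its signal was 9.26, 9.41, 9.46 and 9.51 in the high gain-high intake steers and 9.08, 8.55, 8.87 and 8.96 in the high gain-low intake steers. It was 9.12, 9.10, 9.40 and 9.17 in the low gain-high intake steers and 8.87, 8.96, 8.78 and 8.93 in the low gain-low intake steers. The gap was narrow, since the lowest high intake steer was at 9.10 and the highest low intake steer at 9.08. SYT11 differed by 0.43 (exact permutation p = 0.000408, limma adjusted p = 1, standard error 0.09), 0.54 within high gain and 0.32 within low gain.

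OR2A62, which encodes an odorant receptor, was the single feature with all 8 high intake steers below the 8 low intake steers, again 0.004%. It was 6.89, 6.80, 6.67 and 6.60 in the high gain-high intake steers against 7.42, 6.99, 7.37 and 6.95 in the high gain-low intake steers. The low gain steers had 6.09, 6.45, 6.74 and 6.56 with high intake, against 7.37, 7.21, 7.13 and 7.09 with low intake. The gap was again narrow, with the highest high intake steer at 6.89 and the lowest low intake steer at 6.95. The difference was -0.59 (limma adjusted p = 0.548, standard error 0.11), with the same exact permutation p of 0.000408. Its mean level of 6.90 is below the lower quartile of the features, 7.04.

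GYG1, the glycogenin that primes glycogen synthesis, ranged from 10.78 to 11.30 with 11.20 as the next to highest value in the high gain-high intake steers and was at 10.68, 10.66, 10.66 and 10.73 in the high gain-low intake steers. The low gain steers had 11.14, 10.74, 11.38 and 11.50 with high intake and 10.51, 10.70, 10.39 and 11.02 with low intake. The steers separated within high gain and overlapped within low gain, where 1 high intake and 1 low intake steer crossed. GYG1 differed by 0.46 (exact permutation p = 0.00286, limma adjusted p = 1, standard error 0.12).

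NUFIP2, an RNA-binding protein of stress granules, was lower with high intake in most steers. It ranged from 13.13 to 14.04 with a median of 13.70 in the high intake steers and from 13.93 to 14.79 with a median of 14.24 in the low intake steers. 6 of the 8 high intake steers lay below every low intake steer, and the gene differed by -0.62 (exact permutation p = 0.00163, limma adjusted p = 1, standard error 0.15). TSHZ2, a zinc finger transcription factor, ranged from 9.52 to 10.04 with high intake and from 8.58 to 9.79 with low intake. Its difference of 0.65 (exact permutation p = 0.00204, limma adjusted p = 0.548, standard error 0.12) was uneven between gain levels, at 0.30 within high gain and 0.996 within low gain (interaction adjusted p = 1 in limma).

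**Figure D1:**
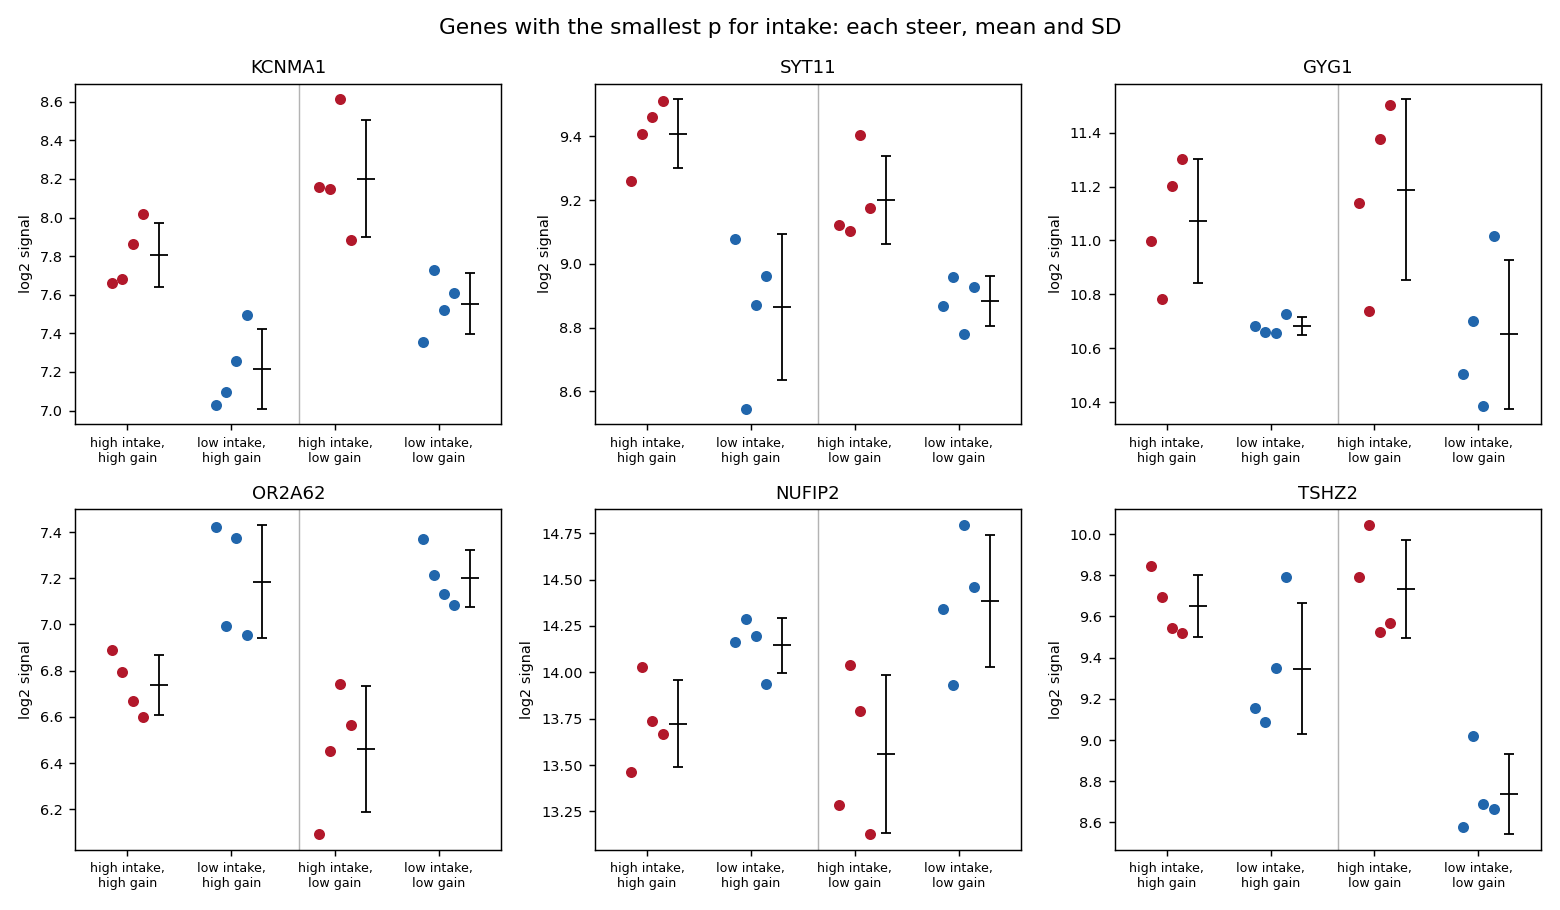
The log2 signal of 6 genes in each steer, with intake groups side by side within each gain level and the mean and SD (n = 4) beside the points. KCNMA1, SYT11 and OR2A62 separate high from low intake steers within both gain levels, while GYG1, NUFIP2 and TSHZ2 overlap in at least 1 of them.

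In each direction, the 15 features of smallest p with a single gene symbol spanned several functions. Besides KCNMA1, TSHZ2, SYT11 and GYG1, the higher ones were HOXB1, ALOX12B, H4C16, SYT9, ADORA2A, SH3TC2, LIPK, GEMIN5, RPUSD2, SCUBE1 and ADCY5, with differences from 0.28 to 0.65. SYT9 is a calcium sensor of vesicle release (0.35, standard error 0.10), GEMIN5 recognises small nuclear RNA during snRNP assembly (0.29, standard error 0.08), and ADCY5 is an adenylyl cyclase that makes cAMP (0.56, standard error 0.17). ADCY5 ranged from 9.26 to 10.35 with a median of 9.91 in high intake steers and from 8.52 to 9.77 with a median of 9.39 in low intake steers, so 7 of 8 high intake steers lay above all low intake steers.

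Besides OR2A62 and NUFIP2, the lower ones were MIR151, LOC100139916, BDKRB2, MIR192, N4BP2L1, CNOT6L, PRP3, PTPN13, TBKBP1, STK32C, KLHL25, BOLA-DQB and HSPH1. CNOT6L, a deadenylase that shortens mRNA tails, ranged from 13.20 to 13.75 with high intake and from 13.59 to 14.34 with low intake, and its difference was -0.38 (standard error 0.10). BDKRB2, the constitutive bradykinin receptor, had a difference of -0.32 (standard error 0.08), and MIR192, a microRNA precursor, of -0.35 (standard error 0.09), both from dim features. Of the 30 features, 4 of the higher and 6 of the lower ones had a level below the lower quartile. All 30 kept an unadjusted p under 0.05 in limma when any 1 steer was left out, which partly follows from their being picked by p on the same steers.

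The gain levels hold different steers, so the intake difference in one can be read against that in the other. Within high gain, 414 features were higher (1.66%) and 490 lower (1.96%) with high intake at an unadjusted limma p under 0.05, and within low gain 516 were higher (2.06%) and 613 lower (2.45%), with 0 called after adjustment in either (lowest limma adjusted p = 1 within high gain and 0.262 within low gain). Of the 904 features called within high gain, 415 had the same direction within low gain, or 45.9%, and of the 1129 called within low gain, 467 had the same direction within high gain, or 41.4%, while over all features 48.4% shared a direction. Across features, the within-gain differences had a Pearson correlation of -0.06 and a Spearman correlation of -0.06, as a description only, since features are not independent. The interaction takes the low gain difference from the high gain one. It was positive at an unadjusted p under 0.05 for 614 features (2.46%) and negative for 549 (2.2%), with 0 adjusted calls in limma. Ordinary least squares also made 0 adjusted calls within either gain level and for the interaction.

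Only 26 features, or 0.104%, were under 0.05 in both gain levels in the same direction, 9 higher and 17 lower, and 35, or 0.14%, were under 0.05 in both in opposite directions. Of the 26, 17 had 1 gene symbol. The higher ones of these were KCNMA1, SYT11, GYG1, ALOX12B, LIPK, ADCY5 and FAXC. The lower ones were OR2A62, MIR192, PRP3, STK32C, LRRC30, STOML1, ANKRD13B, MIRLET7B, ARSK and PHACTR2. LRRC30, STOML1, ANKRD13B, MIRLET7B, ARSK, PHACTR2 and FAXC are named after their values were seen. PHACTR2, a regulator of protein phosphatase 1 and actin, ranged from 11.94 to 12.37 in high intake steers and from 12.05 to 12.78 in low intake steers, and its differences were -0.33 within high gain and -0.39 within low gain. ALOX12B, a lipoxygenase known from skin, had 0.31 within high gain and 0.28 within low gain, and ADCY5 had 0.58 and 0.55.

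**Figure D2:**
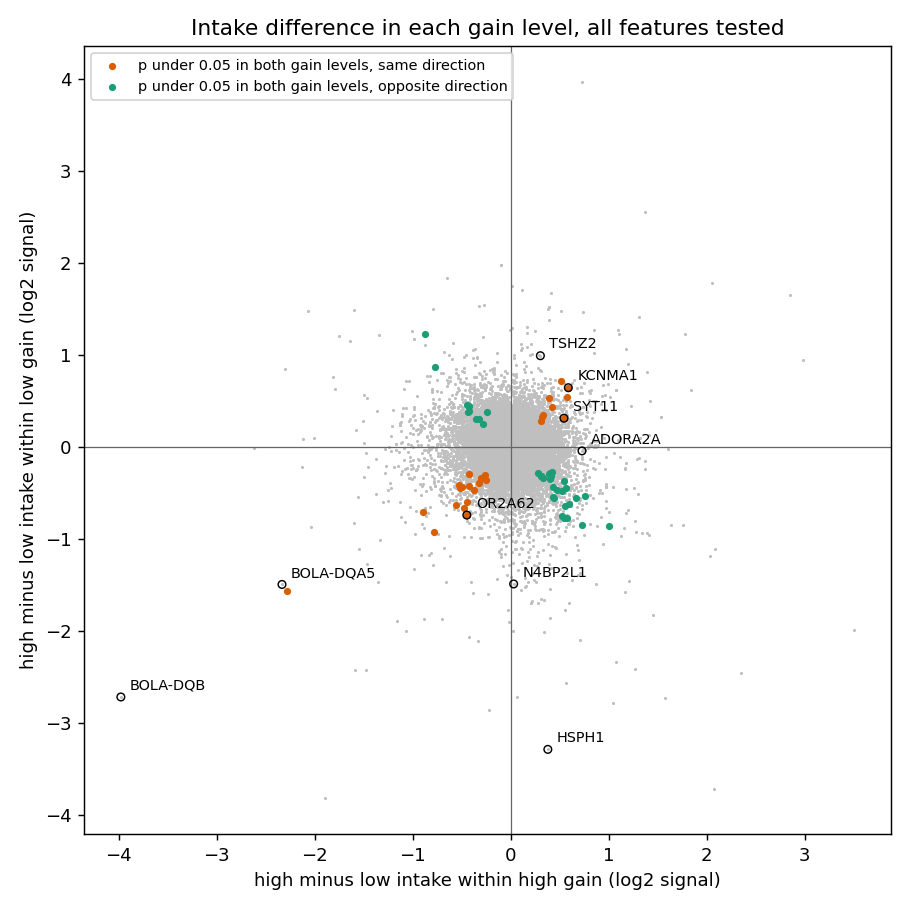
Each of the 24997 features by its intake difference within high gain (horizontal axis) and within low gain (vertical axis), both in log2 signal. Coloured points had an unadjusted p under 0.05 in both gain levels, 26 in the same direction and 35 in opposite directions, and the cloud of grey points shows no common slope (Pearson correlation -0.06).

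Counting steers in place of p gave few features as well. In 4 features, or 0.016%, the 4 high intake and 4 low intake steers did not overlap in either gain level and went the same way. These were KCNMA1, SYT11, OR2A62 and 1 feature without a gene name. In 10 features, or 0.04%, the steers did not overlap in either gain level and went opposite ways. SKP1, a subunit of SCF ubiquitin ligases, was among them with 0.41 within high gain and -0.44 within low gain, as was SIRT6, a histone deacetylase of chromatin and glucose metabolism, with -0.28 within high gain and 0.25 within low gain. Over both gain levels the intake difference was -0.01 for SKP1 and -0.02 for SIRT6.

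Several of the 30 genes had their intake difference in 1 gain level. ADORA2A, the adenosine receptor that raises cAMP and restrains T cells, had 0.73 within high gain and -0.04 within low gain (interaction adjusted p = 1 in limma). HSPH1, a large chaperone that assists the HSP70 proteins, had 0.38 within high gain and -3.29 within low gain (interaction adjusted p = 1 in limma). PTPN13, a protein tyrosine phosphatase, had 0.01 within high gain and -1.14 within low gain, and N4BP2L1 had 0.03 and -1.49. For these genes the mean over both gain levels describes neither of them. Of the 15 higher features, 14 had the same direction in both gain levels, and of the 15 lower ones 12 did, and 10 of the 30 had an unadjusted p under 0.05 in both.

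BOLA-DQB, a bovine MHC class II beta chain that presents peptides to helper T cells, had the largest intake difference of the called features with 1 gene symbol. Its signal was 8.68, 8.89, 8.81 and 9.03 in the high gain-high intake steers, against 8.61, 13.67, 14.40 and 14.64 in the high gain-low intake steers. It was 8.05, 8.69, 9.21 and 8.77 in the low gain-high intake steers, while 14.31, 8.77, 13.65 and 8.85 were measured in the low gain-low intake steers. The values fell into a low and a high level with nothing between them. The high level was seen in 5 of the 8 low intake steers and 0 of the 8 high intake steers, so the groups overlapped through the other 3 low intake steers. The difference of -3.35 (exact permutation p = 0.0176, limma adjusted p = 1, standard error 0.93) therefore averages 2 levels, and no steer was near the low intake mean.

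BOLA-DQA5, an alpha chain of the same class, was highest in the same 5 low intake steers. Its signal ranged from 5.83 to 7.05 in the high intake steers, while the low intake steers had 6.68, 10.96, 8.43 and 9.28 with high gain and 11.15, 6.16, 8.21 and 6.51 with low gain. BOLA-DQA5 differed by -1.91 (exact permutation p = 0.0176, limma adjusted p = 1, standard error 0.66). BOLA-DQA1 had a difference of -1.15 (standard error 0.87), but low gain-high intake steer 1 was at 9.69 while the other 7 high intake steers lay between 13.89 and 16.59, and without that steer the difference was -0.32. BOLA-DQB1 had a difference of -0.98 (standard error 1.12) that ranged from -0.58, without high gain-low intake steer 3, to -1.82, without high gain-low intake steer 1. BOLA-DQA2 had a difference of -0.32 (standard error 0.67), with 0.25 within high gain and -0.89 within low gain. It was highest, at 12.14, in low gain-low intake steer 4, and without that steer the difference was 0.14. BOLA-DRA, the invariant DR alpha chain, was near the ceiling of the scale at a mean of 19.46 and differed by -0.07, BOLA-DRB3 by -0.14, and CIITA, the activator of the class II genes, by -0.11. Of the 20 measured genes of the list MHC class II and its machinery, 4 had a higher and 16 a lower mean with high intake, and BOLA-DQB and BOLA-DQA5 were the only ones with an unadjusted p under 0.05, both lower, against 1.68% lower of all features. The DQ genes of cattle vary in number and sequence between haplotypes and resemble each other, so a probe set can read the allele or a related gene as well as the level, and the part of haplotype in these values was not tested.

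**Figure D3:**
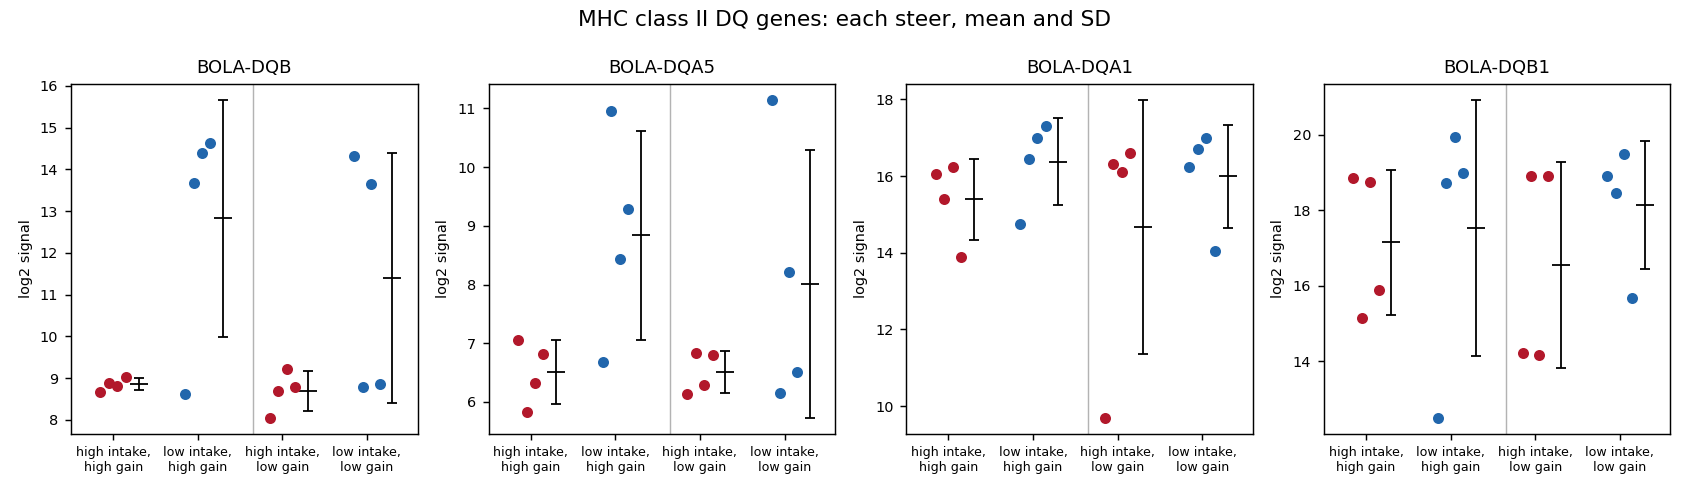
The log2 signal of 4 MHC class II DQ genes in each steer, with the mean and SD (n = 4) beside the points. BOLA-DQB is above 13 in 5 low intake steers and between 8.05 and 9.21 in all 8 high intake steers, and BOLA-DQA5 is highest in the same 5 steers, while BOLA-DQA1 and BOLA-DQB1 overlap between intake groups.

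Genes were then read as 67 lists, 49 of pathways and 18 of cell type markers, with 1621 of their 1768 genes measured. The smooth muscle list was the one with the highest median difference. All 22 measured genes were higher with high intake, against 51.1% of all features, with a median difference of 0.43 against 0.0035 over all features. In limma 4 had an unadjusted p under 0.05, all higher, namely KCNMA1, SYNPO2, MYLK and MYH11, against 1.72% higher over all features, and 0 had an adjusted p under 0.05. KCNMA1 had already stood out in these steers, so its part in these counts is no independent evidence. MYH11, the smooth muscle myosin heavy chain, had a difference of 0.73 (standard error 0.34), MYLK, the kinase that starts contraction by phosphorylating myosin light chain, 0.59 (standard error 0.26), and SYNPO2, an actin-binding Z-disc protein, 0.42 (standard error 0.17). CNN1, a calponin of the contractile apparatus, at 0.75, DES, the intermediate filament desmin, at 0.70 and TAGLN, the actin-binding transgelin, at 0.69 did not pass. List members given here and further on that did not pass 0.05 are examples picked after their values were seen.

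The direction held in both gain levels for 17 of the 22 smooth muscle genes and 0 were lower in both. The median was 0.41 within high gain, and from 0.14 to 0.65 when any 1 steer was left out. Within low gain it was 0.30, and from 0.06 to 0.52 when any 1 steer was left out. The mean of the list in each steer, however, overlapped widely, at 11.19, 11.76, 12.28 and 11.63 in the high gain-high intake steers, against 11.37, 11.43, 11.39 and 11.04 in the high gain-low intake steers. The low gain steers had 11.70, 11.22, 12.58 and 11.85 with high intake, against 11.09, 12.05, 11.29 and 11.55 with low intake. Thus 2 high intake steers, 1 in each gain level, stood highest and another 2 were as low as most low intake steers. Without any 1 steer the median over both gain levels lay between 0.24 and 0.51, with 20 to 22 genes higher and 1 to 9 genes at an unadjusted p under 0.05. Smooth muscle lies in the capsule and trabeculae of the spleen, and how much of these each sample held was not recorded.

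Since KCNMA1 is itself expressed in smooth muscle, its difference was also fitted with the mean of the other 21 markers as a covariate, a choice made after the values were seen. KCNMA1 then had a difference of 0.54 against 0.62 without the covariate, SYT11 0.38 against 0.43, GYG1 0.36 against 0.46, OR2A62 -0.62 against -0.59 and NUFIP2 -0.59 against -0.62. ADCY5 had 0.38 against 0.56 and SCUBE1, a secreted protein of platelets and endothelium, 0.27 against 0.42. The potassium channel subunits KCNE4 and KCNJ8 were also higher. KCNE4, a regulatory subunit, had a difference of 0.47 (standard error 0.16) and 0.41 with the covariate, and KCNJ8, the pore of the vascular ATP-sensitive channel, had 0.35 (standard error 0.14) and 0.19 with the covariate. Over the 66 measured genes of the potassium channels list, however, 36 were higher with a median of 0.03. At an unadjusted p under 0.05, 3 were higher, KCNMA1 among them, and 1, KCNK17, was lower at -0.18. Of all features 1.72% were higher and 1.68% lower.

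Of 36 measured genes of the cell proliferation list, 31 were higher and 22 were higher in both gain levels, against 25.3% of all features, with medians of 0.16 over all steers, 0.15 within high gain and 0.18 within low gain. MKI67, the proliferation marker Ki-67, was the only one under 0.05, at a difference of 0.57 (standard error 0.20, unadjusted limma p = 0.0121, exact permutation p = 0.0196). It ranged from 12.48 to 14.20 with a median of 13.52 in the high intake steers and from 12.51 to 13.38 with a median of 12.85 in the low intake steers, so that 6 of 8 high intake steers lay above all low intake steers and 1 lay below all of them. PLK1, a mitotic kinase, had 0.34, CCNB1, a mitotic cyclin, 0.33 and HMGB2, a chromatin protein of dividing cells, 0.48. The means of the list lay between 9.60 and 10.08 in the high intake steers and between 9.48 and 10.20 in the low intake steers, a spread (SD 0.22) larger than the median difference. Leaving out any 1 steer gave 29 to 33 genes higher and medians from 0.11 to 0.25. The B cells list had 11 of 15 genes higher with a median of 0.11, and the T cells list 10 of 23 with -0.04. Germinal centre B cells had 1 of 5 higher with a median of -0.04, at 0.34 within high gain and -0.17 within low gain. Plasma cells had 4 of 11 higher with -0.01.

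Lists of the TCA cycle, respiratory chain, glycogen, mitochondrial ribosome and proteasome had more genes higher than lower with high intake, by small amounts. Of the TCA cycle list 19 of 24 measured genes were higher, of complex I of the respiratory chain 27 of 36, of complexes III to V 17 of 20, of mitochondrial ribosomal proteins 47 of 68, of proteasome subunits 22 of 31 and of glycogen metabolism 17 of 19, with medians between 0.05 and 0.10. In both gain levels together, 11, 17, 9, 30, 14 and 13 of them were higher, in the same order, against 25.3% of all features. These genes share the RNA of the same steers and are not independent of each other. Of the 198 genes of these 6 lists, 5 were higher and 1 was lower at an unadjusted p under 0.05, or 3.03% against 3.4% of all features, namely NDUFS6 of complex I (0.46, standard error 0.18), MRPS9 (0.30, standard error 0.10) and MRPL27 (0.34, standard error 0.12) of the mitochondrial ribosome, PSMC5 of the proteasome (0.27, standard error 0.10) and GYG1, while COX6C of complex IV was lower (-0.20, standard error 0.09).

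Within glycogen metabolism, PYGL, the liver form of glycogen phosphorylase, had a difference of 0.29, PPP1R3C, which brings protein phosphatase 1 to glycogen, 0.31, and UGP2, which makes the UDP-glucose that glycogen is built from, -0.22, none under 0.05. The glycolysis list had 15 of 23 genes higher with a median of 0.12, but 0.19 within high gain and -0.01 within low gain. The median over all steers was -0.01 without high gain-high intake steer 4. The pentose phosphate and NADPH list had 5 of 8 higher with a median of 0.01, at -0.10 within high gain and 0.11 within low gain. Of 21 genes of mitochondrial fatty acid oxidation 13 were higher with a median of 0.04, and 3 were higher at an unadjusted p under 0.05, against 1.72% of all features. HADHB, the beta subunit of the trifunctional protein, had 0.41 within high gain and 0.04 within low gain, CPT2, which hands long chain fatty acids to the matrix, 0.28 and 0.15, and ACADSB, a dehydrogenase of short branched chains, 0.11 and 0.54. ACACA, the rate-limiting enzyme of fatty acid synthesis, was at 0.20 (standard error 0.09), and 20 of 35 genes of fatty acid synthesis and storage were higher with a median of 0.02.

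Lists of feeding signals differed little. Of 33 measured appetite and gut hormone receptors 14 were higher with a median of -0.01 and 0 had an unadjusted p under 0.05 in limma. Of 27 genes of insulin, IGF and growth hormone signalling 19 were higher with a median of 0.07 and again 0 passed, and IGF1 had a difference of 0.24, with 0.25 within high gain and 0.22 within low gain. The mTOR and amino acid sensing list had 13 of 29 higher with -0.04, and AMPK and energy sensing 7 of 18 with -0.01. Cytosolic ribosomal proteins had 23 of 51 higher with a median of -0.02.

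In some innate immune lists more genes were lower than higher with high intake, while complement had 17 of 31 genes higher with a median of 0.02 and 0 called. Of the type I interferon stimulated genes, 0 of 28 measured were higher with high intake and the median was -0.38, with 0 genes at an unadjusted p under 0.05 in limma. The list mean was 10.72, 10.44, 11.78 and 10.49 in the high gain-high intake steers and 10.69, 14.56, 10.94 and 10.42 in the high gain-low intake steers, and it lay between 10.27 and 10.94 in the low gain-high intake steers and between 10.53 and 10.75 in the low gain-low intake steers. High gain-low intake steer 2 thus stood far above all others, and without it 18 of 28 genes were higher and the median was 0.06. The related list of guanylate binding proteins and IFN-gamma response had 3 of 19 higher with a median of -0.22, and -0.16 without the same steer.

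Neutrophil granule genes behaved in a similar way. Of the list neutrophils and granule proteins, 2 of 19 genes were higher with a median of -0.24 and 0 under 0.05 in limma, but the list mean was 11.53 in low gain-low intake steer 2 and 10.49 in low gain-high intake steer 4, against 7.68 to 9.40 in the other 14. Without the first of these steers 17 of 19 genes were higher and the median was 0.20, and without the second the median was -0.51. The direction of this list therefore rests on these steers.

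**Figure D4:**
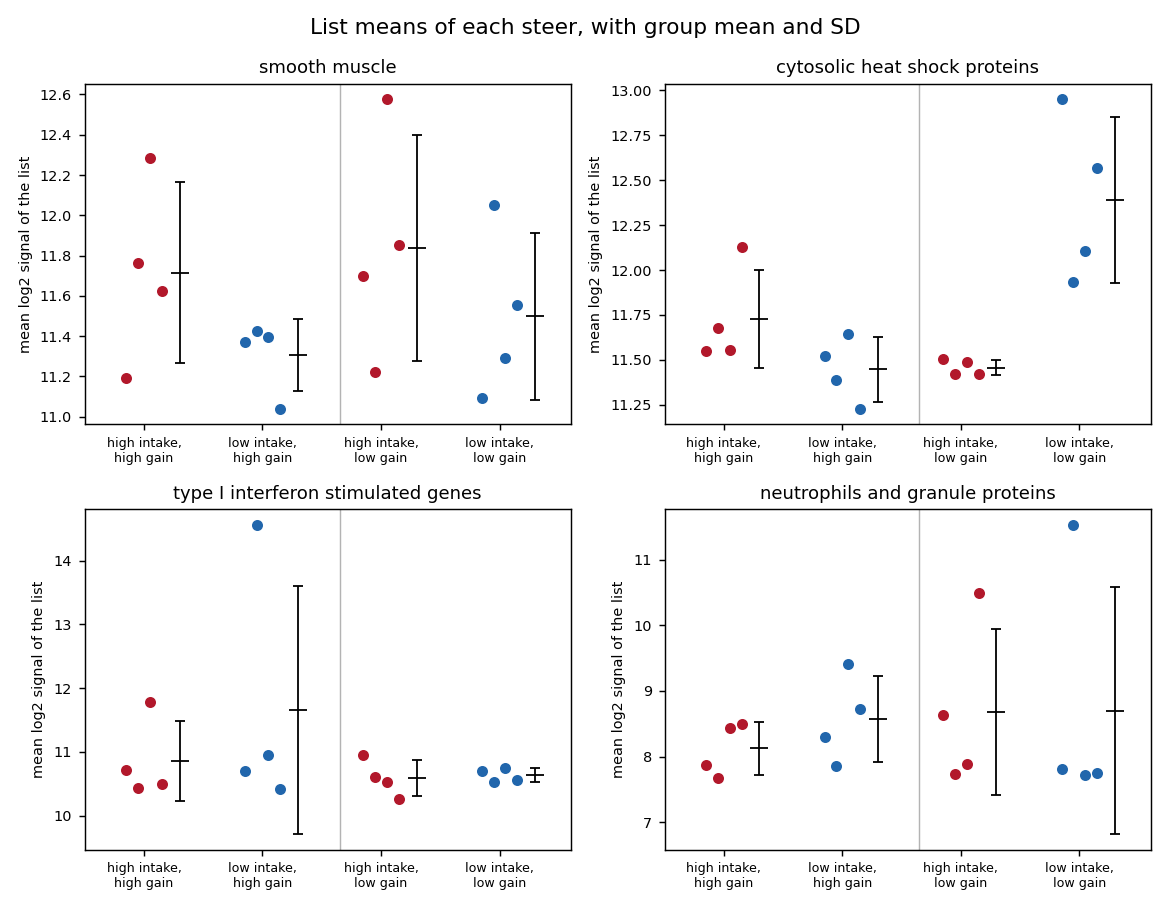
The mean log2 signal of 4 gene lists in each steer, with the group mean and SD (n = 4) beside the points. Single steers stand far from their groups for type I interferon stimulated genes (14.56) and for neutrophils and granule proteins (11.53 and 10.49), heat shock proteins are high in the low gain-low intake steers, and smooth muscle overlaps between intake groups.

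The lists of toll-like receptors, cytokines and the NF-kB pathway were first read over both gain levels. Every gene in them with an unadjusted p under 0.05 was then lower with high intake. Of 30 genes of toll-like receptors and signalling 11 were higher and 3 were lower under 0.05, against 1.68% of all features: TLR2, a receptor of bacterial lipopeptides (-0.31, standard error 0.14), TLR7, a receptor of single-stranded RNA (-0.77, standard error 0.36), and TRAF6, their shared ubiquitin ligase (-0.20, standard error 0.08). TLR7 was highest, at 11.61, in high gain-low intake steer 2, the steer that stood apart for interferon stimulated genes, and it differed by -0.43 without that steer. Of the 47 genes named from the lists alone, TLR7 and 23 others had an unadjusted p of 0.05 or more without at least 1 steer, among them MYH11, MYLK, SYNPO2, COX6C, ACADSB, ACACA, TLR2, IL12B and CXCL5. Of 30 inflammatory cytokines and chemokines 11 were higher, and IL12B, CXCL5 and PTGS2 were lower under 0.05, against 1.68% of all features. Within low gain, 2 of the cytokine list were higher and 3 lower under 0.05, and of the NF-kB pathway 1 was higher and 1 lower. Of all features 2.06% were higher and 2.45% lower within low gain. REL, the NF-kB subunit c-Rel of lymphocytes, was at 13.37 to 14.24 in the high intake steers and 13.69 to 14.82 in the low intake steers (-0.48, standard error 0.15, unadjusted limma p = 0.00661, exact permutation p = 0.018). The medians of these lists were small, at -0.04 for toll-like receptors (-0.06 within high gain, and 0.01 with 17 of 30 genes higher within low gain), -0.05 for cytokines and -0.04 for the NF-kB pathway.

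PTGS2, the inducible cyclooxygenase, was high in few animals. It was 7.22, 8.02, 7.99 and 8.08 in the high gain-high intake steers against 8.49, 8.05, 8.50 and 7.99 in the high gain-low intake steers. The low gain steers had 7.11, 7.53, 8.62 and 9.28 with high intake, against 9.24, 8.10, 10.92 and 12.53 with low intake. The 2 highest values belonged to low gain-low intake steers and the other 14 lay between 7.11 and 9.28. PTGS2 differed by -1.25 (standard error 0.50, exact permutation p = 0.0465), with -0.43 within high gain and -2.06 within low gain.

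Of the 9 measured genes of the mast cells and basophils list, 2 were higher at an unadjusted p under 0.05, against 1.72% of all features. CPA3, the mast cell carboxypeptidase, ranged from 7.65 to 9.09 with a median of 8.40 in the high intake steers and from 7.36 to 8.04 with a median of 7.80 in the low intake steers, so that it differed by 0.51 (exact permutation p = 0.0208, standard error 0.19). HPGDS, a prostaglandin D synthase, had 0.34 (standard error 0.13). The list median was 0.21 within high gain and 0.02 within low gain. Within low gain 1 gene was higher and 2 were lower at an unadjusted p under 0.05, against 2.06% higher and 2.45% lower of all features. An unadjusted interaction p under 0.05 was found for 2 genes, against 2.46% positive and 2.2% negative of all features. The other 7 measured genes of the mast cells and basophils list did not pass 0.05, among them KIT at -0.12 and MS4A2 at 0.18, and 5 of 9 were higher. The summed level of the list overlapped between intake groups, with means of 8.60 to 9.17 in the high intake steers and 8.61 to 9.02 in the low intake steers.

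Heat shock genes went opposite ways in the gain levels. Of 30 measured genes of the cytosolic heat shock proteins list, 28 were higher with high intake within high gain (median 0.18) and 29 lower within low gain (median -0.92), and 20 had an unadjusted interaction p under 0.05 in limma, against 2.46% positive and 2.2% negative over all features. This list follows genes that had already stood out in these steers, so its counts are no independent evidence. Over both gain levels 23 were lower with a median of -0.28, and 9 of these had an unadjusted p under 0.05, against 1.68% of all features. They were HSPH1, DNAJA4, BAG3, SUGT1, DNAJB4, DNAJB1, CHORDC1, CACYBP and HSPA4. HSPH1 was at 12.64, 13.22, 12.12 and 13.32 in the high gain-high intake steers against 13.16, 12.62, 12.87 and 11.13 in the high gain-low intake steers. In the low gain steers it was at 12.31, 12.59, 11.93 and 11.83 with high intake, against 17.23, 13.97, 14.80 and 15.80 with low intake. Intake therefore separated the steers within low gain, where no low intake steer was below a high intake one, and not within high gain.

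Some other stress-linked lists were also lower with high intake mainly within low gain. SR splicing factors and CLK kinases had a median of 0.14 within high gain and -0.24 within low gain, with 16 of 19 genes higher in the first and 2 of 19 in the second, and immediate early genes had -0.02 and -0.38. Others were near 0 within low gain. Endoplasmic reticulum chaperones had medians of 0.15 and -0.05, with 14 of 19 genes higher over both gain levels. The amino acid and integrated stress response list had 0.08 and -0.05, and antioxidant and NRF2 targets 0.05 and -0.07. CREM, a cAMP-responsive transcription factor, had 0.31 within high gain and -0.89 within low gain, SLC5A3, an inositol transporter, 0.55 and -1.77, and ATF3, a stress-induced transcription factor, 0.15 and -1.51. The intake difference over both gain levels averages unlike values for these genes.

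Other lists differed little by intake. The erythroid cells list had 9 of 21 genes higher with a median of -0.02, red pulp macrophages 11 of 23 with 0.00, endothelium 13 of 23 with 0.01, natural killer and cytotoxic cells 12 of 19 with 0.07 and pancreas 7 of 15 with 0.00. Collagens and matrix had 29 of 39 higher with a median of 0.08, but 0.23 within high gain and -0.01 within low gain. Of 33 genes of TGF-beta and BMP signalling 13 were higher with a median of -0.03, and the genes under 0.05 pointed both ways, 3 higher and 2 lower, against 1.72% higher and 1.68% lower of all features. INHBB, the beta B subunit of activin and inhibin, was at 0.41 (standard error 0.13), while SMAD3, which carries the TGF-beta signal to the nucleus, was at -0.49 (standard error 0.19), with 6 of 8 high intake steers below every low intake steer.

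**Figure D5:**
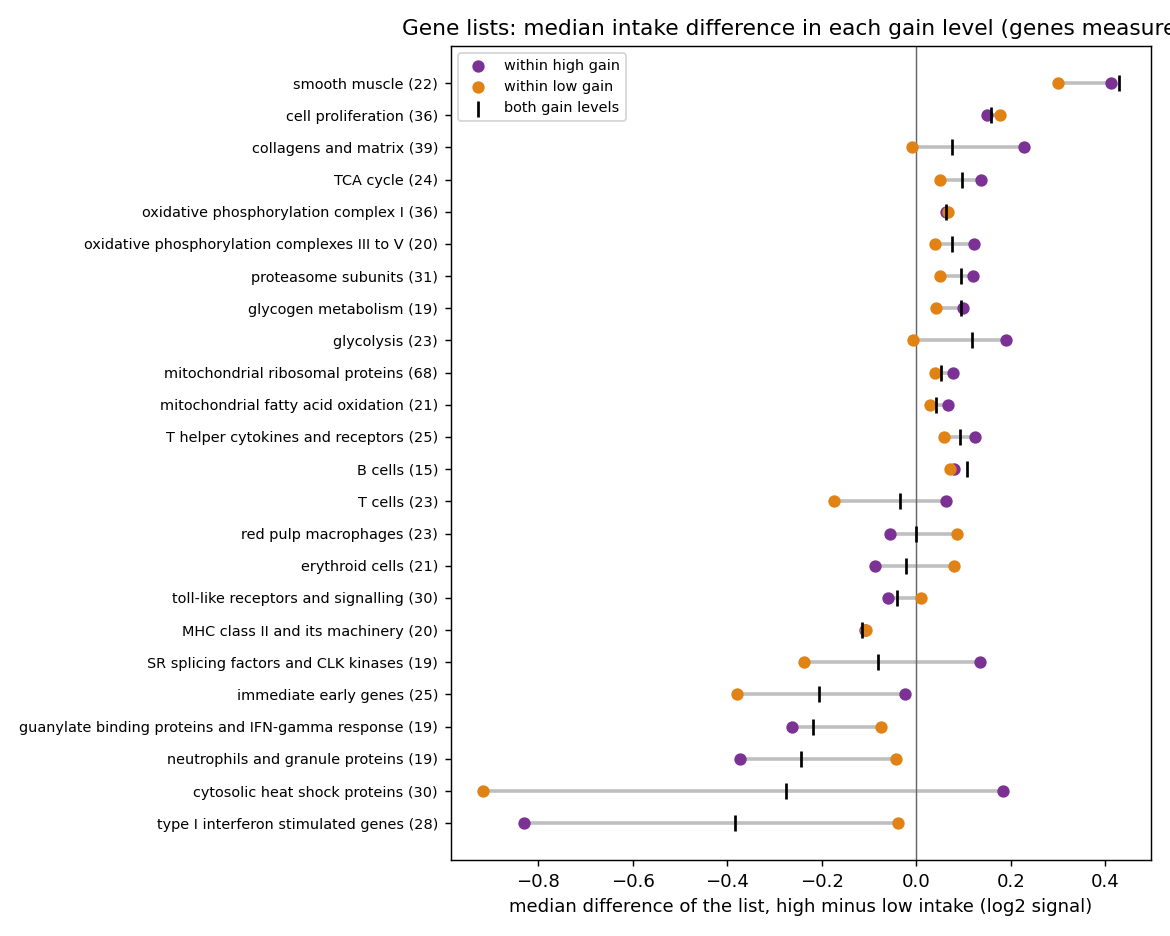
The median intake difference (high minus low, log2 signal) of 24 gene lists within high gain, within low gain and over both, with the number of genes measured in brackets. Smooth muscle (0.41 and 0.30) and cell proliferation (0.15 and 0.18) lie on the same side of 0 in both gain levels, whereas cytosolic heat shock proteins lie at 0.18 within high gain and -0.92 within low gain.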

How the data were processed

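Spleen RNA of 16 steers was hybridised to Affymetrix Bovine 1.1 ST arrays. The log2 values deposited by the authors had been corrected for probe GC content, stretched by the signal space transformation and summarised by robust multichip analysis in Affymetrix Expression Console. Software versions were not given in the sources used here. Of 26773 features, 1776 with an ID before the first annotated one were not used. The 24997 tested features comprised 18790 with 1 gene symbol, 385 with several and 5822 unnamed. The means of the 4 gain and intake groups were fitted with limma (version 3.58.1, R 4.3.3), and the intake contrast, the contrast within each gain level and the interaction were tested with Benjamini-Hochberg adjustment over all features. Tables were handled in Python 3.11.15. In data simulated for the intake contrast, adjusted calls found 85 of 100 features with a log2 shift of 1 and 97 of 100 with a shift of 2, beside 15 unchanged ones. The simulated noise was normal and independent between features, with no steer standing apart and no gene at 2 levels. These shares therefore need not hold for the real arrays. Shifts below 1 were not simulated, while the median absolute difference of the features at an unadjusted p under 0.05 for intake was 0.33. Single genes had a two-sided exact permutation test of intake within gain level (4900 ways, smallest p = 0.000408). Named were the 15 features of smallest p per direction, features without overlap, up to 4 list members with p under 0.05, 5 interactions per direction and genes given beforehand. Members and lists were chosen with earlier results of these data known, and the smooth muscle covariate after seeing the data. The number of arrays limits precision. Steer numbers follow accession order and are only names. Each steer is a separate animal.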

Additional observations from a re-analysis of the deposited data

Results flagged for a closer look

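In 94 groups of 8 steers, formed by 47 values in either intake level, 10 had a steer that stood apart from the rest of its group, and chance flags about 1 in 20 groups. Type I interferon stimulated genes had a list mean of 14.56 in high gain-low intake steer 2 and, in the other intake group, of 11.78 in high gain-high intake steer 3, while the remaining 14 steers lay between 10.27 and 10.94. High gain-low intake steer 2 also stood highest for guanylate binding proteins and IFN-gamma response, at 11.96. Neutrophils and granule proteins had a list mean of 10.49 in low gain-high intake steer 4 and of 11.53 in low gain-low intake steer 2. Cytosolic heat shock proteins were highest among high intake steers in high gain-high intake steer 4, at 12.13. Single genes with a steer apart were LIPK, an acid lipase family member, at 5.87 in high gain-low intake steer 3, BDKRB2, the bradykinin receptor, at 4.92 in low gain-high intake steer 1, TBKBP1, an adaptor of the TBK1 kinase, at 7.03 in high gain-high intake steer 3, and BOLA-DQB at 8.05 in low gain-high intake steer 1.

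Genes named here had intake differences of opposite sign in the gain levels with no overlap of high and low intake steers within either. The interaction, positive where high gain had the higher difference, was tested in limma and the adjusted p was 1 for each of them. It was -0.62 for AP1G2, a subunit of a clathrin adaptor, and -0.53 for SIRT6. It was 0.68 for MTERF3, a regulator of mitochondrial transcription, 0.45 for CRK, a signalling adaptor, 0.85 for SKP1 and 0.998 for MIR98, a microRNA of the let-7 family.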

How the results depend on the processing

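In 2468 pairs of a gene and a setting, run for the intake difference over both gain levels and for 14 single-gene interactions, DNAJA4 not among them, none gained or lost an adjusted call or changed direction. There was no adjusted call to lose. Most of these genes were picked by p on the same steers, so a change of direction was unlikely from the start. Counts at an unadjusted p under 0.05 moved with the filter on level. Above the median level, 180 features were higher and 166 lower with high intake, 344 passed within high gain, 599 within low gain and 627 for the interaction, 6 passed in both gain levels in the same direction and 18 in opposite directions. Above the lower quartile, 277 were lower with high intake, 590 passed within high gain and 14 passed in both gain levels in the same direction. Fewer features were tested under these filters. At a threshold of 0.01, 1 feature passed in both gain levels in the same direction and 0 in opposite directions. With the smooth muscle markers as a covariate, 42 passed in both in the same direction, and the cause was not tested. Centring, quantile scaling, ordinary least squares, array weights, a variance trend and models without the interaction or without gain gave 408 to 555 features higher, 380 to 528 lower and 0 adjusted calls.

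Leaving out any 1 steer gave 382 to 654 features higher, the most without low gain-high intake steer 2, and 0 to 1 with an adjusted p under 0.05, the 1 being a feature without a gene name, called without low gain-low intake steer 4. Within low gain 0 to 3 were called. These were SLC5A3, HSPH1 and DNAJA4 without low gain-low intake steer 2, and the same unnamed feature without low gain-low intake steer 4. For the interaction 0 to 1 were called, namely DNAJA4 without low gain-low intake steer 2 and that unnamed feature without low gain-low intake steer 4. Features under 0.05 in both gain levels numbered 19 to 45 in the same direction, the most without low gain-high intake steer 2, and 23 to 66 in opposite directions. Those in opposite directions numbered 66 without low gain-low intake steer 2, 62 without high gain-high intake steer 3 and 53 without low gain-high intake steer 1. Of 1470 pairs of a list and a setting, 1467 list medians stayed within the spread between steers. Those that moved were potassium channels at -0.12 above the median level, nerve and glia at -0.13 above the lower quartile and adipocytes at 0.10 without high gain-high intake steer 1.

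No paired analysis was possible because the labels carry no replicate numbers. Steers of all groups were slaughtered on each day, but the day of a steer is not in the labels. Features at the ceiling of the scale and those below the lower quartile of level limit what can be seen, and log2 differences are those of a stretched scale.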
